A study of Mus musculus with 12 samples.

Results

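Hlx, Myct1 and 7 transcription factors of vascular endothelium (Sox17, Sox18, Sox7, Erg, Fli1, Ets1 and Tal1) were followed by gene symbol across the 49492 rows of the deposited count table. Hlx and Myct1 were chosen because their counts were higher with TAC in wild type and little changed with TAC in the knockout, so their levels and fold changes are given as a description, without a test. The other 7 genes were chosen by function and were tested. All 9 had counts in every library and were among the 15542 genes that passed the filter on low counts. Each of 4 groups had 3 libraries, all made from the left ventricle of mice. Alox5ko_TAC and Alox5ko_NS carry a knockout of Alox5, with TAC and without it, and WT_TAC and WT_NS are the matching wild-type groups. TAC stands for transverse aortic constriction, surgery that tightens the aortic arch and raises the pressure against which the left ventricle pumps. NS is not explained in the labels and is taken here as no TAC. The design text speaks of cardiac deficiency of Alox5, but the samples are labelled by genotype alone. The promoter or Cre line, strain, sex, age and time after surgery are not given in the sources used here.

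Endothelial cells line all vessels of the heart and keep their identity through a small set of transcription factors that act together. ETS factors such as Erg, Fli1 and Ets1 bind a short GGAA core and keep genes of endothelial junctions and receptors active. The SOXF subfamily (Sox7, Sox17 and Sox18) directs arterial, venous and lymphatic fate, and Tal1 is a helix-loop-helix factor of blood and endothelial precursors. Hlx is a homeobox factor known from embryonic gut and liver mesenchyme, from innate lymphocytes and from cultured human endothelial cells. Myct1 encodes a membrane protein of endothelium, and in the mouse embryo its gene is a known target of the ETS factor Etv2.

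The sequences below show how alike the most closely related genes are, since reads from a shared stretch cannot be assigned to 1 gene. Capitals mark the longest run shared by both coding sequences of a pair, read from GENCODE M21 transcripts (GRCm38). Sox17 (chromosome 1) and Sox18 (chromosome 2) share 29 bases within the DNA-binding HMG box.
Sox17: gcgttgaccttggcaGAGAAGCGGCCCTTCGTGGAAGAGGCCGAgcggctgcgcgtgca
Sox18: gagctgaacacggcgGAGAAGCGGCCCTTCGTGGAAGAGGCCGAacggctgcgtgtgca
Erg (chromosome 16) and Fli1 (chromosome 9) share 22 bases within the ETS domain.
Erg: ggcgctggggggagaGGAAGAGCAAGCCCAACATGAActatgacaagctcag
Fli1: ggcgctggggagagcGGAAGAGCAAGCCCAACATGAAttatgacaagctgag
The longest runs of the other pairs within these families were 18 to 22 bases, all far shorter than the 150-base reads.

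The upstream sequences of Hlx and Myct1 are shown because these genes were picked together. Both come from the RefSeq promoter table (GRCm38.p6) and hold only bases ahead of both the RefSeq and the GENCODE start, printed 5′ to 3′ on the strand of the gene, with the ETS core GGAA and its complement TTCC in capitals.
Hlx, chr1:184732620-184732743, minus strand: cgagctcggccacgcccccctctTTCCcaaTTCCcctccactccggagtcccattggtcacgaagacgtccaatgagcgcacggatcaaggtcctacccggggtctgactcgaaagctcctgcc
Myct1, chr10:5593478-5593727, plus strand: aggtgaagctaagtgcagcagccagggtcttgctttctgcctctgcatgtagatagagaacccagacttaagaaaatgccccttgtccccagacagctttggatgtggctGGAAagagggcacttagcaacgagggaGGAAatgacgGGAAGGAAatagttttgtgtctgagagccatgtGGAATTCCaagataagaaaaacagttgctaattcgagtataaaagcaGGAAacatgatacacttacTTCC
The core occurred 2 times in the 124 bases of Hlx and 8 times in the 250 bases of Myct1, counting both strands. Among 32851 promoter entries, 75.1% held GGAA in the stretch used for Hlx and 93.4% in the stretch used for Myct1, so its presence sets neither gene apart. The number of matches was not compared with that of other entries. The Myct1 window also held 1 AGATAA (the GATA motif, in 9.99% of entries), 1 TATAAA (the TATA box, in 12.4%) and 2 CANNTG (the E-box bound by Tal1 and other helix-loop-helix factors, in 66.2%). None of these occurred in the Hlx window, and neither window held CCGGAA (the ETS core with its preferred flank), ACAAT (a SOX motif) or the RUNX motifs TGTGGT and TGCGGT. A match is a run of letters and not a binding site, and the table had entries for 4 of the 9 genes.

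Library totals ran from 20889431 to 27311196 counts. Alox5, which encodes the 5-lipoxygenase that starts leukotriene synthesis, had 0.934 to 1.46 CPM (counts adjusted for library total and TMM factor) in the 6 knockout libraries, against 9.56 to 13.9 CPM in the 6 wild-type libraries. Alox5 fell by 3.28 on the log2 scale in Alox5ko_TAC relative to WT_TAC (edgeR quasi-likelihood test, adjusted p = 5.37e-09). Summed over 8 cardiomyocyte markers, the libraries held 141280 to 177787 CPM without TMM scaling, as heart muscle would. This sum does not tell the left ventricle from other parts of the heart. Replicate 3 of Alox5ko_NS stood apart, with the lowest cardiomyocyte sum and the highest share of mitochondrial transcripts, 21.4% against 14.6% to 18.7% in the other 11 libraries. Replicate 1 of WT_TAC had the highest sums of endothelial and fibroblast markers, 1761 and 926 CPM.

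Hlx (chr1:184727140-184732619, minus strand, ENSMUSG00000039377.7) was high in WT_TAC alone. It measured 4.54, 4.71 and 5.36 CPM in Alox5ko_TAC, 4.04, 5.30 and 2.98 CPM in Alox5ko_NS, 9.21, 8.71 and 8.60 CPM in WT_TAC, and 5.91, 5.32 and 4.71 CPM in WT_NS. All 3 WT_TAC libraries lay above the other 9, and the other 3 groups overlapped. The means were 4.87 ± 0.431, 4.10 ± 1.16, 8.84 ± 0.324 and 5.31 ± 0.597 CPM in the same order (SD, n = 3 each). These CPM came from 67 to 203 reads per library.

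The fitted log2 fold change of Hlx with TAC was 0.24 (SE 0.171) in Alox5ko and 0.73 (SE 0.162) in WT. Between genotypes it was -0.86 (SE 0.163) in Alox5ko_TAC against WT_TAC and -0.36 (SE 0.170) in Alox5ko_NS against WT_NS. The TAC response in Alox5ko minus the WT response was -0.50 (SE 0.236). These comparisons share libraries, WT_TAC in particular, so they are not separate pieces of evidence. The wild-type value stayed between 0.65 and 0.82 when any 1 library was left out. The Alox5ko value did not hold its size, since it was 0.06 without replicate 3 of Alox5ko_NS, the library noted above, and 0.46 without its replicate 2.

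Myct1 (chr10:5593775-5606904, plus strand, ENSMUSG00000046916.9) had the same pattern with more spread. It measured 3.82, 3.52 and 5.84 CPM in Alox5ko_TAC, 4.11, 2.95 and 4.09 CPM in Alox5ko_NS, 5.54, 6.43 and 7.24 CPM in WT_TAC, and 4.86, 3.33 and 3.37 CPM in WT_NS. The WT_TAC libraries lay above all WT_NS libraries, but replicate 3 of Alox5ko_TAC fell inside their range. The means were 4.39 ± 1.26, 3.72 ± 0.667, 6.40 ± 0.847 and 3.85 ± 0.875 CPM (SD, n = 3 each).

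The fitted log2 fold change of Myct1 with TAC was 0.24 (SE 0.208) in Alox5ko and 0.73 (SE 0.203) in WT, close to the values of Hlx. Alox5ko_TAC against WT_TAC gave -0.55 (SE 0.201), and Alox5ko_NS against WT_NS gave -0.05 (SE 0.210). The TAC response in Alox5ko minus the WT response was -0.49 (SE 0.290), and it ran from -0.75 to -0.36 when 1 library was left out. Values that involve the knockout moved with single libraries. With TAC in Alox5ko the log2 fold change was -0.01 without replicate 3 of Alox5ko_TAC and 0.37 without its replicate 2. Between Alox5ko_TAC and WT_TAC it was -0.80 and -0.41 without these libraries, and the value of Alox5ko_NS against WT_NS ran from -0.15 to 0.15 when 1 library was left out. The wild-type value stayed between 0.64 and 0.93.

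**Figure D1:**
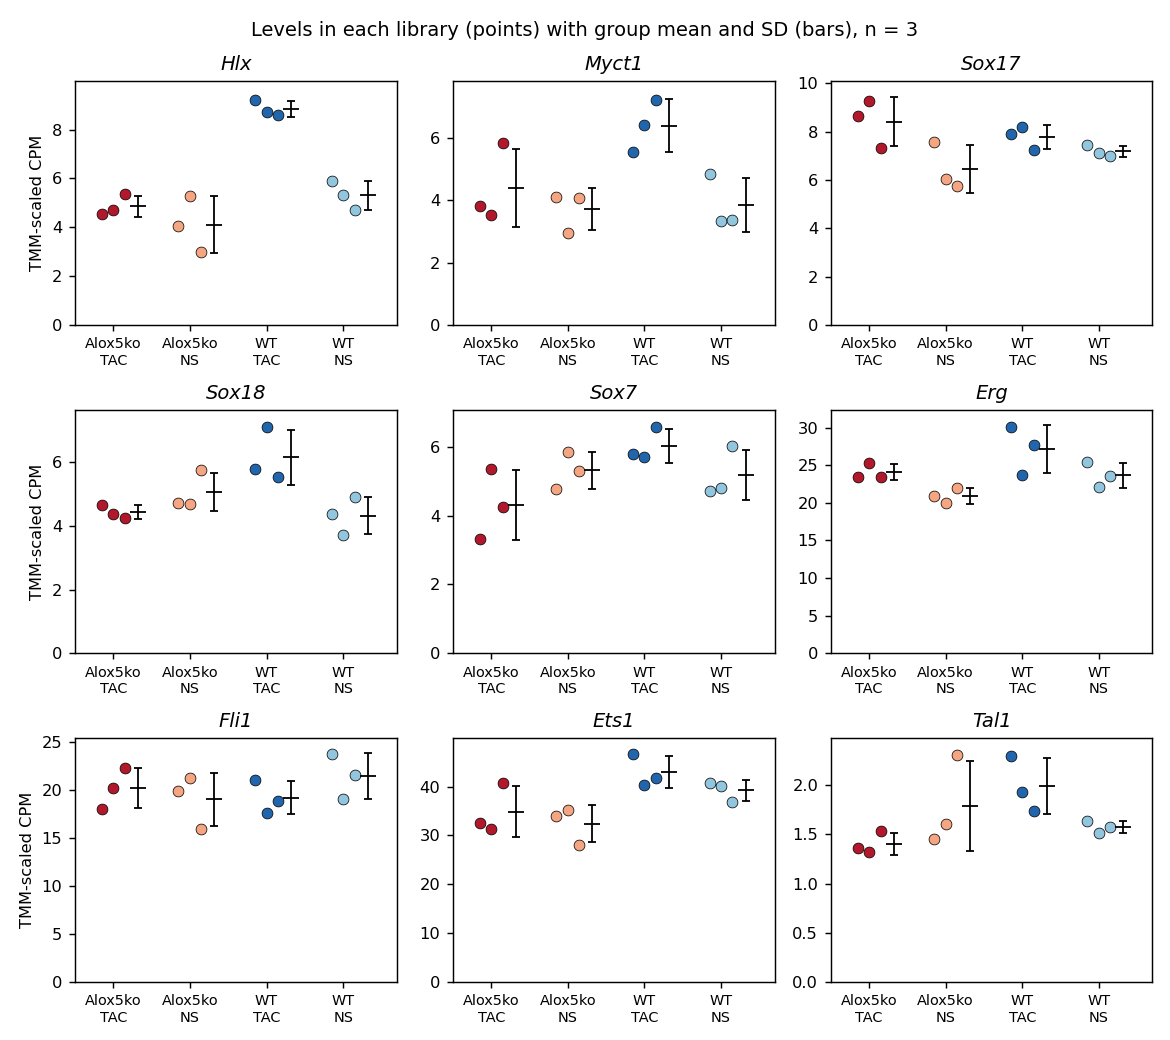
Level of each gene in TMM-scaled CPM (y axis, linear from 0) in the 4 groups (x axis); points are libraries, and the bar beside them is the mean with its SD (n = 3). The 3 WT_TAC libraries of Hlx sit at 8.60 to 9.21 CPM, above the other 9, whereas Fli1 overlaps between all groups.

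Among the SOXF genes, Sox18 (chr2:181669836-181671640, minus strand), a regulator of lymphatic and venous development, had TAC responses of opposite sign in the genotypes, neither of which passed the test. It measured 4.67, 4.39 and 4.26 CPM in Alox5ko_TAC, 4.71, 4.70 and 5.74 CPM in Alox5ko_NS, 5.78, 7.12 and 5.54 CPM in WT_TAC, and 4.36, 3.72 and 4.89 CPM in WT_NS. Every Alox5ko_TAC library lay below every Alox5ko_NS library, though the nearest were 4.67 and 4.70 CPM, and every WT_TAC library lay above every WT_NS library. The log2 fold change with TAC was -0.18 in Alox5ko (SE 0.153, edgeR adjusted p = 0.642) and 0.51 in WT (SE 0.152, adjusted p = 0.137). Alox5ko_TAC also lay wholly below WT_TAC (log2 -0.47, SE 0.152, adjusted p = 0.346), and the difference of the TAC responses was -0.69 (SE 0.215, adjusted p = 0.636).

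Sox7 (chr14:63943674-63950732, plus strand), which acts early in vessel formation, measured 3.31, 5.35 and 4.26 CPM in Alox5ko_TAC, 4.78, 5.86 and 5.29 CPM in Alox5ko_NS, 5.78, 5.70 and 6.58 CPM in WT_TAC, and 4.73, 4.80 and 6.01 CPM in WT_NS. Only Alox5ko_TAC and WT_TAC did not overlap, with all Alox5ko_TAC libraries lower. The log2 fold change between them was -0.49 (SE 0.168, adjusted p = 0.374), and with TAC it was -0.31 (SE 0.168, adjusted p = 0.425) in Alox5ko and 0.22 (SE 0.165, adjusted p = 0.671) in WT.

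Sox17 (chr1:4490931-4497354, minus strand), which directs arterial identity, did not share that order. It measured 8.66, 9.28 and 7.32 CPM in Alox5ko_TAC, 7.59, 6.04 and 5.74 CPM in Alox5ko_NS, 7.89, 8.19 and 7.24 CPM in WT_TAC, and 7.45, 7.13 and 7.002 CPM in WT_NS. The groups overlapped in each of the 4 comparisons. The log2 fold change with TAC was 0.38 in Alox5ko (SE 0.131, adjusted p = 0.169) and 0.11 in WT (SE 0.132, adjusted p = 0.815). An antisense gene, Gm37587, overlaps an exon of Sox17 and had 0 to 5 counts per library against 129 to 204 for Sox17. How strand was treated in counting is not given in the sources used here, so reads of this pair may be mixed to that extent.

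Of the ETS factors, Erg (chr16:95359169-95586593, minus strand), which holds endothelial junction genes active, measured 23.4, 25.3 and 23.5 CPM in Alox5ko_TAC, 20.9, 19.9 and 22.0 CPM in Alox5ko_NS, 30.1, 23.8 and 27.7 CPM in WT_TAC, and 25.4, 22.1 and 23.6 CPM in WT_NS. Alox5ko_TAC lay above Alox5ko_NS, and Alox5ko_NS lay below WT_NS, each without overlap. The log2 fold change with TAC was 0.20 in each genotype (SE 0.098 and adjusted p = 0.357 in Alox5ko, SE 0.0976 and adjusted p = 0.446 in WT), and the difference of these responses was 0.00448 (SE 0.138, adjusted p = 0.9998).

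Ets1 (chr9:32636221-32757820, plus strand), a factor of vessel sprouting, measured 32.5, 31.3 and 40.8 CPM in Alox5ko_TAC, 34.0, 35.3 and 28.1 CPM in Alox5ko_NS, 46.7, 40.4 and 41.8 CPM in WT_TAC, and 40.8, 40.2 and 36.8 CPM in WT_NS. All Alox5ko_NS libraries lay below all WT_NS libraries, and replicate 3 of Alox5ko_TAC reached into the range of WT_TAC. The log2 fold change was -0.30 between Alox5ko_TAC and WT_TAC (SE 0.108, adjusted p = 0.404) and -0.27 between Alox5ko_NS and WT_NS (SE 0.108, adjusted p = 0.703). With TAC it was 0.10 in Alox5ko and 0.13 in WT (adjusted p = 0.725 and 0.699).

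Fli1 (chr9:32422204-32542861, minus strand), which acts beside Erg in endothelium and in blood cells, measured 18.0, 20.2 and 22.2 CPM in Alox5ko_TAC, 19.9, 21.2 and 15.9 CPM in Alox5ko_NS, 21.0, 17.6 and 18.9 CPM in WT_TAC, and 23.8, 19.0 and 21.5 CPM in WT_NS. No pair of groups was separate. Its log2 fold changes in the 4 comparisons ran from -0.17 to 0.08, with adjusted p-values of 0.659 to 0.918.

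Tal1 (chr4:115056426-115071755, plus strand), a master factor of early blood cells and endocardium, was the scarcest of the 9, with 29 to 52 reads per library. It measured 1.36, 1.33 and 1.53 CPM in Alox5ko_TAC, 1.46, 1.60 and 2.31 CPM in Alox5ko_NS, 2.30, 1.93 and 1.74 CPM in WT_TAC, and 1.64, 1.51 and 1.57 CPM in WT_NS. WT_TAC lay above WT_NS and above Alox5ko_TAC without overlap, and the highest value was that of Alox5ko_NS replicate 3, the library that stood apart. The log2 fold change with TAC was -0.34 (SE 0.227, adjusted p = 0.528) in Alox5ko and 0.34 (SE 0.223, adjusted p = 0.608) in WT, and -0.50 (SE 0.227, adjusted p = 0.570) between Alox5ko_TAC and WT_TAC. Without replicate 3 of Alox5ko_NS, the first of these was -0.13. Erythroid and megakaryocyte markers, which mark the blood lineages that use Tal1, summed to 165 to 252 CPM in Alox5ko_TAC, 180 to 319 in Alox5ko_NS, 177 to 235 in WT_TAC and 144 to 240 in WT_NS. Their part in the Tal1 values was not tested.

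**Figure D2:**
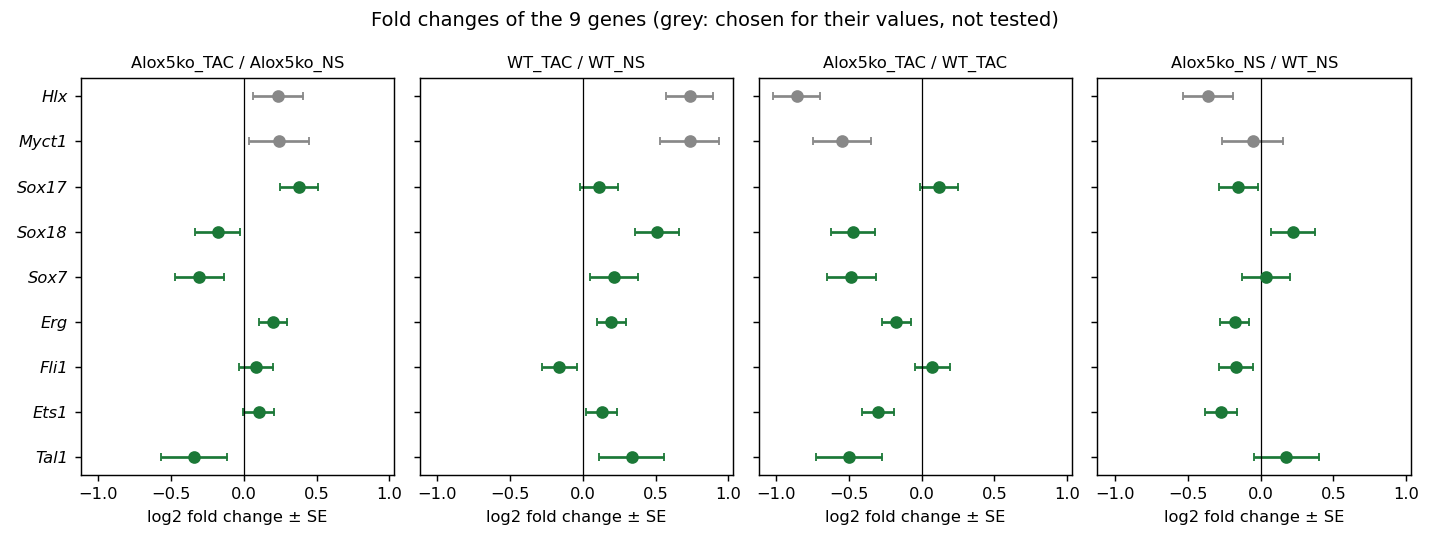
Fitted log2 fold change (x axis) with its SE for the 9 genes (rows) in 4 comparisons (panels); grey points were chosen for their values and carry no test, green points were tested. Hlx and Myct1 sit at 0.73 with TAC in WT and at 0.24 in Alox5ko, and none of the green points passed an adjusted p of 0.05.

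None of the 7 genes chosen by function was called at an adjusted p under 0.05 in any comparison, by edgeR or by DESeq2. With TAC in Alox5ko, 0 of 7 were called against 1.34% of all genes tested, 1 of 7 had an unadjusted p under 0.05 against 14.5% of all genes, and the median log2 fold change was 0.08. With TAC in WT, 0 of 7 were called against 0.766% of all genes, and 1 of 7 had an unadjusted p under 0.05 against 11.9%. The median was 0.20, with 6 of 7 positive against 50.9% of all genes. Between Alox5ko_TAC and WT_TAC, 0 of 7 were called against 0.109% of all genes. Here 4 of 7 (Sox18, Sox7, Ets1 and Tal1) had an unadjusted p under 0.05 against 8.49% of all genes, all with negative values, and the median was -0.30. Between Alox5ko_NS and WT_NS, 0 of 7 were called against 0.0386%, 1 of 7 had an unadjusted p under 0.05 against 6.36%, and the median was -0.15. For the difference of the TAC responses, 0 of 7 genes were called against 0% of all genes by edgeR, 3 of 7 (Sox18, Sox7 and Tal1) had an unadjusted p under 0.05 against 5.38%, and the median was -0.03. The medians over all genes were between -0.01 and 0.00.

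Of the 7 genes, 5 had groups that did not overlap in at least 1 comparison, and Sox17 and Fli1 had none. With TAC in Alox5ko, 1 of 7 was wholly higher (Erg, 8.98% of all genes) and 1 wholly lower (Sox18, 9.02%). With TAC in WT, 2 of 7 were wholly higher (Sox18 and Tal1, 10.1% of all genes) and none wholly lower (8.81%). In Alox5ko_TAC against WT_TAC, 3 of 7 were wholly lower (Sox18, Sox7 and Tal1, 6.51% of all genes) and none wholly higher (5.77%). In Alox5ko_NS against WT_NS, 2 of 7 were wholly lower (Erg and Ets1, 7.45% of all genes) and none wholly higher (6.14%).

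Levels per gene length ordered the 9 genes from Erg to Tal1. In deposited RPKM (reads scaled by library total and the deposited gene length), the mean over 12 libraries was 6.92 ± 0.907 for Erg, 5.72 ± 0.704 for Fli1, 4.42 ± 0.694 for Ets1, 3.08 ± 0.553 for Sox18 and 2.55 ± 0.898 for Hlx (SD, n = 12). The length used was 8476 bases for Ets1, 3466 for Erg and 3486 for Fli1, and the order depends on it. Myct1 (1.61 ± 0.487), Sox7 (1.58 ± 0.272) and Sox17 (1.56 ± 0.226) could not be ordered, since Myct1 exceeded Sox7 in 6 of 12 libraries and Sox7 exceeded Sox17 in 6 of 12. Tal1 came last at 0.385 ± 0.0728 RPKM, below Sox17 in 12 of 12 libraries. Among all genes tested, Erg stood at the 76.0 percentile of RPKM, Hlx at the 54.4 and Tal1 at the 15.3. Sox18 exceeded Hlx in 9 of 12 libraries, and WT_TAC was the group in which the mean of Hlx was the higher.

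**Figure D3:**
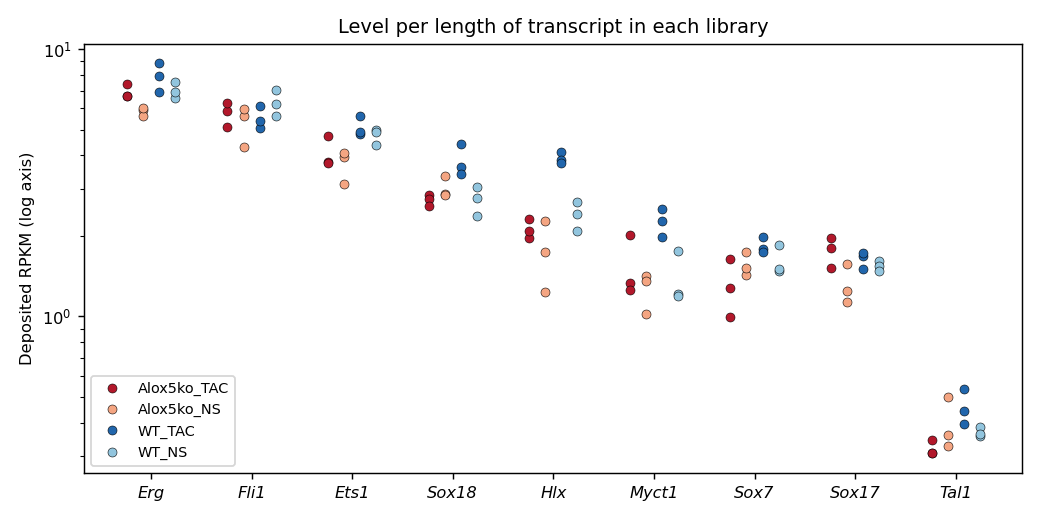
Deposited RPKM (y axis, log scale) of the 9 genes (x axis, by mean level); each point is 1 of 12 libraries, coloured by group. Erg, Fli1 and Ets1 lie between 3.13 and 8.84 RPKM and Tal1 between 0.307 and 0.536 RPKM.

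In whole tissue, fewer cells of a type and less RNA per cell cannot be told apart. The levels were also set, as a description, against 24 pan-endothelial markers (such as Pecam1, Cdh5 and Kdr). These summed to 1389 to 1500 CPM in Alox5ko_TAC, 1213 to 1363 in Alox5ko_NS, 1377 to 1761 in WT_TAC and 1470 to 1606 in WT_NS. The markers overlapped between WT_TAC and WT_NS, and all Alox5ko_NS libraries lay below all WT_NS libraries. All Alox5ko_TAC libraries lay above all Alox5ko_NS libraries, with 22 of 24 markers positive against 49.3% of all genes. Ratios to these markers with TAC in Alox5ko therefore also carry the change of the markers. Of the 24, none was called by edgeR in the 4 comparisons, but 2 were called with TAC in WT without replicate 1 of WT_TAC and 1 with TAC in Alox5ko without replicate 2 of Alox5ko_NS. The unadjusted p was under 0.05 for 11 with TAC in Alox5ko (14.5% of all genes) and 2 with TAC in WT (11.9%). It was under 0.05 for 4 between Alox5ko_TAC and WT_TAC (8.49%) and 11 between Alox5ko_NS and WT_NS (6.36%). Median log2 fold changes of the 24 in that order were 0.23, 0.03, -0.08 and -0.21. DESeq2 called 1 of them, Mmrn2, with TAC in Alox5ko. Markers of the vessel types that SOXF factors specify partly repeat genes of other lists. Their median log2 fold changes with TAC in Alox5ko, with TAC in WT and between Alox5ko_TAC and WT_TAC were 0.19, 0.26 and -0.18 for 8 arterial markers, 0.17, 0.18 and -0.16 for 7 lymphatic markers, and -0.01, -0.11 and 0.19 for the 6 venous and endocardial markers tested of 8. Neither edgeR nor DESeq2 called any of these, and an unadjusted p was under 0.05 for 4, 3 and 3 arterial, 0, 0 and 1 lymphatic and 0, 0 and 1 venous or endocardial markers. Over all genes tested, the shares in these comparisons were 14.5%, 11.9% and 8.49%.

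Per 1000 CPM of these markers, Hlx had 3.32 ± 0.204 CPM in Alox5ko_TAC, 3.07 ± 0.746 in Alox5ko_NS, 5.90 ± 0.525 in WT_TAC and 3.55 ± 0.282 in WT_NS (SD, n = 3 each). The log2 ratio differed by 0.14 with TAC in Alox5ko, by 0.73 with TAC in WT and by -0.83 between Alox5ko_TAC and WT_TAC. The marker median changed by 0.03 with TAC in WT, so the ratio there largely repeats the counts for which Hlx was picked. It is not separate evidence, and a change in the number of endothelial cells was not tested. Myct1 had 2.99 ± 0.785, 2.81 ± 0.600, 4.32 ± 0.985 and 2.57 ± 0.486 CPM per 1000 CPM of markers in the same order, and its log2 ratio differed by 0.08, 0.74 and -0.54 in these 3 comparisons. Sox18 per marker differed by -0.32 with TAC in Alox5ko and by 0.50 with TAC in WT, where the groups then overlapped. Between Alox5ko_NS and WT_NS it differed by 0.40, and these groups became separate. Erg per marker differed by 0.06 with TAC in Alox5ko against 0.20 per library. Between Alox5ko_NS and WT_NS it differed by -0.00635 against -0.18 per library, and both pairs of groups then overlapped. Erg became separate with TAC in WT (0.19) and between Alox5ko_TAC and WT_TAC (-0.13). Sox7 became separate with TAC in Alox5ko (-0.47) but came to overlap between Alox5ko_TAC and WT_TAC, as Ets1 did between Alox5ko_NS and WT_NS. Tal1 was separate throughout, at -0.46 with TAC in Alox5ko and 0.32 with TAC in WT. The share of all genes with separate groups on this ratio scale was not determined, so these separations are a description only. The marker sums themselves set Alox5ko_NS apart from WT_NS and from Alox5ko_TAC.

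**Figure D4:**
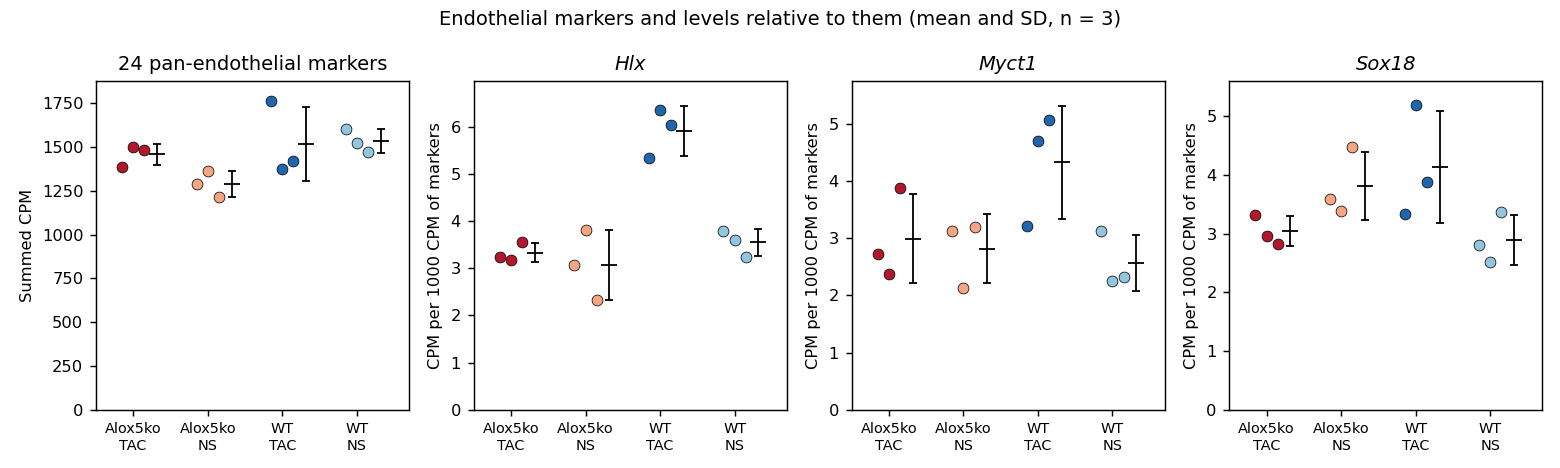
Summed CPM of 24 pan-endothelial markers (left) and CPM of Hlx, Myct1 and Sox18 per 1000 CPM of those markers (y axes, linear from 0) in the 4 groups; points are libraries, with the mean and SD (n = 3). The marker sums of WT_TAC (1377 to 1761 CPM) and WT_NS (1470 to 1606 CPM) overlap, and the Hlx ratio averages 5.90 in WT_TAC and 3.55 in WT_NS.

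Markers of other cell types moved with some groups. The 9 smooth muscle and pericyte markers summed to 734 to 882 CPM in Alox5ko_TAC, 706 to 906 in Alox5ko_NS, 907 to 1082 in WT_TAC and 1024 to 1075 in WT_NS, so each knockout group lay below its wild-type group. An unadjusted p was under 0.05 for 5 of the 9 between Alox5ko_TAC and WT_TAC, against 8.49% of all genes. Between Alox5ko_NS and WT_NS it was under 0.05 for 7, against 6.36%. The medians were -0.34 and -0.42, and edgeR called none. DESeq2 called Acta2 between Alox5ko_NS and WT_NS (log2 -0.87, adjusted p = 0.000298). The 8 fibroblast markers summed to 469 to 542 CPM in Alox5ko_TAC, 334 to 403 in Alox5ko_NS, 501 to 926 in WT_TAC and 479 to 554 in WT_NS. Pi16, a marker of resting fibroblasts, rose with TAC by 1.16 in Alox5ko (SE 0.189, adjusted p = 0.0190) and by 1.49 in WT (SE 0.190, adjusted p = 0.00793) on the log2 scale. The call was lost without replicate 2 (adjusted p = 0.0899) or replicate 3 (adjusted p = 0.0813) of Alox5ko_NS in Alox5ko, and without replicate 3 of WT_NS (adjusted p = 0.0507) in WT. The 8 macrophage markers summed to 71.1 to 94.7 CPM in Alox5ko_TAC, 64.4 to 73.3 in Alox5ko_NS, 58.1 to 84.8 in WT_TAC and 75.8 to 80.9 in WT_NS. Between Alox5ko_TAC and WT_TAC all 8 had positive values, and DESeq2 called Cd163 (log2 0.69, adjusted p = 0.0320). The part of these cell types in the values of the 9 genes was not tested. The 6 markers of innate lymphoid and natural killer cells, which use Hlx, summed to at most 0.383 CPM in any library, and no gene of that list had enough counts to be tested.

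Other transcription factors of endothelium were read from a list of 36, of which 33 were tested and Etv2 was at 0 in every library. edgeR called none of the 33 in any comparison. It called 1 with TAC in WT and 1 between Alox5ko_TAC and WT_TAC when only the 6 libraries compared were fitted, and 4, 3 and 1 (between Alox5ko_NS and WT_NS) without the filter on low counts. The unadjusted p was under 0.05 for 3 with TAC in Alox5ko, 8 with TAC in WT, 12 between Alox5ko_TAC and WT_TAC, 4 between Alox5ko_NS and WT_NS and 3 for the difference of the TAC responses. Over all genes tested, the shares in that order were 14.5%, 11.9%, 8.49%, 6.36% and 5.38%. Between Alox5ko_TAC and WT_TAC, 32 of 33 had negative values, with a median of -0.20, and DESeq2 called 1, Tcf15. The medians were 0.03 with TAC in Alox5ko (22 of 33 positive), 0.18 with TAC in WT (27 of 33 positive) and -0.11 between Alox5ko_NS and WT_NS (29 of 33 negative). Of all genes tested, 49.3% were positive with TAC in Alox5ko and 50.9% with TAC in WT. Between genotypes 48.5% were positive in Alox5ko_TAC against WT_TAC and 50.4% in Alox5ko_NS against WT_NS. In Alox5ko_TAC against WT_TAC, marker lists of other cell types were one-sided as well. All 8 fibroblast markers (median -0.40) and all 9 smooth muscle and pericyte markers (median -0.34) were negative. All 8 macrophage markers were positive (median 0.24). A negative sign there was therefore not particular to endothelial factors. These comparisons share the WT_TAC or WT_NS libraries, and the list was drawn up with earlier results of these data known.

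Some of these factors, named after their values were seen, had their highest mean in WT_TAC, as Hlx did. Hhex, a homeobox factor of early endothelium and liver, averaged 2.02 ± 0.823 CPM in Alox5ko_TAC, 1.91 ± 0.402 in Alox5ko_NS, 3.84 ± 0.109 in WT_TAC and 2.10 ± 0.496 in WT_NS (SD, n = 3 each). Tcf15, a helix-loop-helix factor found in heart endothelium, averaged 6.04 ± 1.71, 7.50 ± 1.72, 11.5 ± 0.193 and 7.66 ± 3.08 CPM. Klf2, a factor switched on by blood flow, averaged 16.5 ± 1.24, 15.9 ± 3.13, 24.9 ± 3.92 and 17.4 ± 3.76 CPM. The log2 fold changes between Alox5ko_TAC and WT_TAC were -0.94 for Hhex (adjusted p = 0.221), -0.93 for Tcf15 (adjusted p = 0.342 by edgeR and 0.0325 by DESeq2) and -0.59 for Klf2 (adjusted p = 0.294).

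The other genes of the SOX and ETS families differed in their medians. Of 16 other SOX genes, 8 were tested and Sox1, Sox3, Sox14 and Sox21 were at 0 in every library. Their median log2 fold change was 0.08 with TAC in Alox5ko (5 of 8 positive), 0.38 with TAC in WT (6 of 8 positive) and -0.42 between Alox5ko_TAC and WT_TAC (8 of 8 negative). Of all genes tested, 49.3%, 50.9% and 48.5% were positive in these comparisons. edgeR called none of the 8. An unadjusted p was under 0.05 for 1, 2 and 2 of them, against 14.5%, 11.9% and 8.49% of all genes. edgeR called 1 with TAC in WT when only the 6 libraries compared were fitted, and 1, 2 and 1 in these comparisons without the filter. Without replicate 1 of WT_TAC it called 1 with TAC in WT and 1 between Alox5ko_TAC and WT_TAC, and DESeq2 called Sox4 and Sox13 with TAC in WT and Sox4 between Alox5ko_TAC and WT_TAC. Sox4, a factor of progenitor cells, averaged 6.33 ± 1.19 CPM in Alox5ko_TAC, 4.23 ± 1.44 in Alox5ko_NS, 12.04 ± 3.90 in WT_TAC and 6.34 ± 0.855 in WT_NS (SD, n = 3 each). Of 23 other ETS genes, 14 were tested, and edgeR and DESeq2 called none. In the same 3 comparisons 5, 3 and 3 had an unadjusted p under 0.05, beside the same shares of all genes. The medians were -0.04, -0.03 and -0.04. The difference between the families was not tested.

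**Figure D5:**
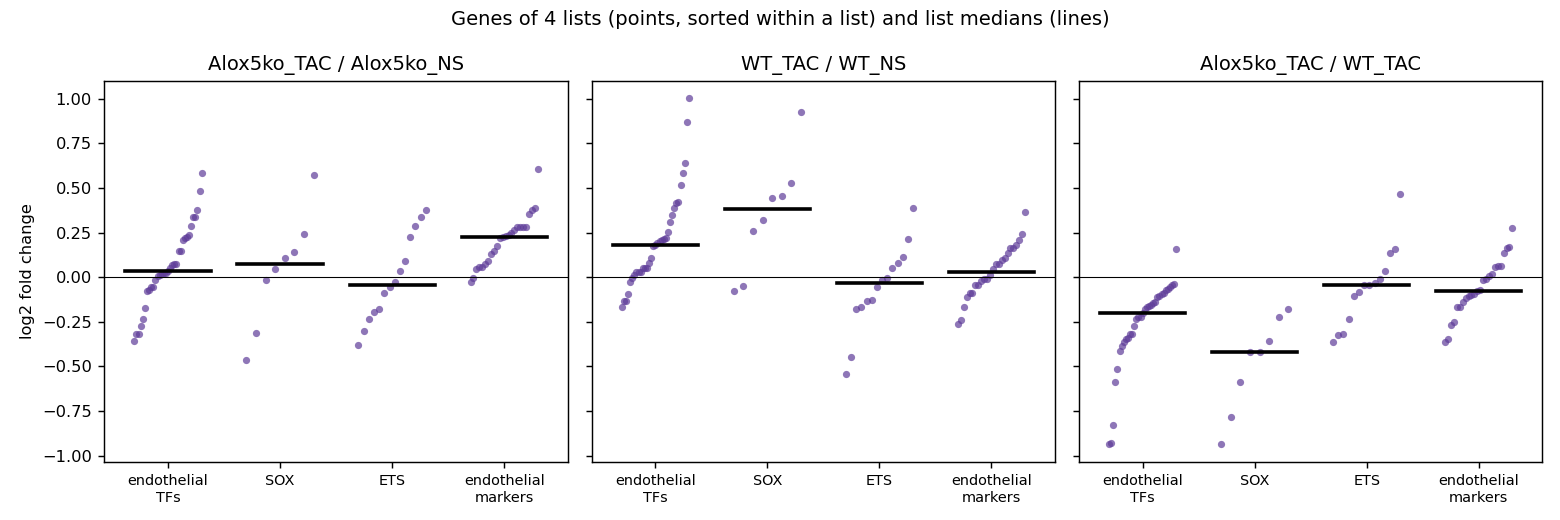
Log2 fold change (y axis) of each tested gene (points, sorted within a list) in 4 lists (x axis), with the list median as a line, in 3 comparisons (panels). The SOX median lies at 0.38 with TAC in WT and at -0.42 between Alox5ko_TAC and WT_TAC, while the ETS median lies at -0.04 or -0.03 in all 3.

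Signals that act on endothelium were read from 29 genes of VEGF, angiopoietin, apelin and Notch signalling, all tested. Apln, the ligand of the apelin receptor, was the only one edgeR called, and it fell by 0.56 on the log2 scale with TAC in Alox5ko (SE 0.115, adjusted p = 0.0211). This was 1 of 29, beside 1.34% of all genes tested. Apln averaged 7.18 ± 0.673 CPM in Alox5ko_TAC, 10.6 ± 0.927 in Alox5ko_NS, 7.26 ± 0.518 in WT_TAC and 10.1 ± 0.259 in WT_NS (SD, n = 3 each). With TAC in WT its log2 fold change was -0.48 (SE 0.116, adjusted p = 0.0609), and the difference of the responses was -0.09 (SE 0.163, adjusted p = 0.9997). The Alox5ko call was lost when only the 6 libraries compared were fitted (adjusted p = 0.0525) and without replicate 1 (0.0575) or replicate 2 (0.0969) of Alox5ko_NS or replicate 3 of Alox5ko_TAC (0.103). DESeq2 called Apln in both genotypes, and it called Aplnr, the receptor, with TAC in WT and between Alox5ko_TAC and WT_TAC.

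Genes most like Hlx and Myct1 were ranked by Pearson correlation of log2 CPM over 12 libraries among 10323 genes, as a description in which all points share the 4 groups. The 5 nearest to Hlx were Trib2 (a pseudokinase, r = 0.924), Elk3 (an ETS factor of endothelium, r = 0.921), Ralgds (r = 0.916), Afdn (a junction scaffold, r = 0.915) and Tspan13 (r = 0.912). For these 5, r stayed between 0.881 and 0.949 when 1 library was left out. A high r did not mean the same TAC responses as Hlx. With TAC in Alox5ko and in WT, the log2 fold changes were 0.37 and 0.39 for Elk3 and 0.31 and 0.36 for Afdn. They were 0.15 and 0.29 for Trib2, 0.13 and 0.36 for Ralgds, and 0.14 and 0.32 for Tspan13. The 5 nearest to Myct1 were Jag1 (a Notch ligand, r = 0.889), Il16 (r = 0.881), Lrrfip2 (r = 0.875), Chmp4b (r = 0.873) and Sertad4 (r = 0.866). With TAC in Alox5ko and in WT, their log2 fold changes were 0.18 and 0.54 for Jag1 and 0.40 and 0.61 for Il16. They were 0.04 and 0.13 for Lrrfip2, 0.02 and 0.22 for Chmp4b, and 0.68 and 0.83 for Sertad4. Of the 9 genes themselves, Ets1 was nearest to Hlx (r = 0.865, rank 47). Hlx and Myct1 correlated at r = 0.664, which is rank 535 from Hlx and rank 197 from Myct1, so neither was among the closest partners of the other.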

How the data were processed

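RNA of 12 mouse left ventricle libraries was measured. The authors deposited raw counts per gene and RPKM values; per the labels, libraries were directional and poly(A)-selected. The submitters' processing notes name HISAT2, DESeq2, GRCh38 and mm10, and the counting program and its strand setting are not given in the sources used here. The deposited tables also give gene length, and all 336840 RPKM values were recomputed from counts within 0.1%. Positions follow GENCODE M21 (GRCm38). The test used edgeR 4.0.16 (with limma 3.58.1, R 4.3.3), after filterByExpr (minimum count 10, minimum total 15), TMM, and a robust quasi-likelihood fit of 12 libraries with 1 coefficient per group. Every adjusted p comes from that test, by Benjamini-Hochberg over 15542 genes, unless DESeq2 (1.42.0) is named. Called means an adjusted p below 0.05. The biological coefficient of variation shared by all genes was 0.107. Nothing in the labels ties each library to its own animal, so p-values reflect only the spread between libraries, which may be technical. Libraries of 1 group differed by a chi-square per gene of 5.39 to 31.8, so none repeats another. An exact test of 3 against 3 cannot go below p = 0.1 and was not used. Ratios divide CPM by the summed CPM of 24 endothelial markers, both without TMM scaling or a pseudocount.

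The 9 genes and all lists were chosen with earlier results of these data known. By rule, the text names the 9 genes, Alox5, up to 4 called genes per list and comparison, and the 5 genes most like Hlx and Myct1 (mean log2 CPM of at least 1, no predicted gene models). Others named, among them genes that only DESeq2 called, were chosen after their values were seen. Alternatives were DESeq2's size factors in edgeR, DESeq2, no filter, a replicate block, only the 6 libraries compared, each library left out, and a mean of log markers for the ratios.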

Additional observations from a re-analysis of the deposited data

Results flagged for a closer look

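The TAC response of Sox18 in Alox5ko minus its response in WT was -0.69 on the log2 scale. It drew attention because every Alox5ko_TAC library lay below every Alox5ko_NS library (4.26 to 4.67 CPM against 4.70 to 5.74 CPM), while every WT_TAC library lay above every WT_NS library (5.54 to 7.12 CPM against 3.72 to 4.89 CPM). The difference itself was tested and did not pass (edgeR, unadjusted p = 0.00454, adjusted p = 0.636), and leaving out each library in turn gave -0.79 to -0.57, with no adjusted p below 0.304.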

How the results depend on the processing

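None of the 7 genes chosen by function was called under any of the alternatives run. The counts over all genes moved. With DESeq2 they were 373 with TAC in Alox5ko, 285 with TAC in WT, 59 between Alox5ko_TAC and WT_TAC, 24 between Alox5ko_NS and WT_NS and 1 for the difference of responses, against 209, 119, 17, 6 and 0 with edgeR. Without the filter they were 756, 538, 252, 116 and 83, and calls appeared in lists that had none. These were up to 1 per comparison for the pan-endothelial, arterial, lymphatic, macrophage, cardiomyocyte and other ETS genes. They were up to 2 for the other SOX genes, 3 for smooth muscle and pericyte markers and 4 for the other endothelial transcription factors. The signalling list had 3 with TAC in each genotype, and the fibroblast list up to 3. With only the 6 libraries compared, they were 159 with TAC in Alox5ko, 215 with TAC in WT, 39 between Alox5ko_TAC and WT_TAC and 18 between Alox5ko_NS and WT_NS. Leaving out 1 library gave 60 to 379 with TAC in Alox5ko (379 without replicate 2 of Alox5ko_TAC), 17 to 95 in WT, 10 to 27, 2 to 7 and 0 to 1 in the same order. The cause was not tested. Same-numbered libraries of different groups did not deviate together (r of -0.12 to 0.09 over 18 pairs, 0 over 0.1). With 3 libraries per group this cannot exclude that the numbers pair them. A replicate block gave 170, 110, 21, 6 and 0 genes called, no call among the 7, and 1 call among the other SOX genes with TAC in WT. Of these calls, 153 with TAC in Alox5ko, 85 with TAC in WT, 15 between Alox5ko_TAC and WT_TAC and 4 between Alox5ko_NS and WT_NS were shared with the fit without a block. The small log2 difference of the Erg responses turned to -0.0035 without the filter, and to between -0.081 and 0.084 when 1 library was left out. Other tested genes whose sign turned with 1 library left out were Sox7 (-0.041 to 0.16), Tal1 (-0.038 to 0.31) and Pi16 (-0.14 to 0.017) between Alox5ko_NS and WT_NS, Fli1 (-0.0027 to 0.15) and Apln (-0.083 to 0.053) between Alox5ko_TAC and WT_TAC, and Fli1 (-0.028 to 0.17) and Ets1 (-0.025 to 0.17) with TAC in Alox5ko. So did Ets1 in the difference of responses (-0.15 to 0.043), and Alox5 with TAC in Alox5ko (-0.097 to 0.22), with TAC in WT (-0.20 to 0.032) and in their difference (-0.0042 to 0.31). Apln with TAC in WT was called by DESeq2 (adjusted p = 0.0403) and without the filter (adjusted p = 0.0299), and Pi16 between Alox5ko_TAC and WT_TAC without the filter. With a mean of log markers, the Erg ratio turned from 0.061 to -0.014 with TAC in Alox5ko. Between Alox5ko_NS and WT_NS, the Erg ratio turned from -0.0064 to 0.062 and that of Fli1 from -0.0073 to 0.061. With TAC in Alox5ko, Hlx went from 0.14 to 0.06 and Myct1 from 0.08 to 0.0021. With TAC in WT, Hlx and Myct1 were each at 0.71. Of the 9 genes Tal1 had the fewest reads, 29 to 52 per library, which limits its precision.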
